A study of Rattus norvegicus with 11 samples.

Results

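The oxytocin receptor gene, Oxtr (ENSRNOG00000005806), is 1 of 25275 genes in a table of RNA counts from rat fat, and it was followed here rat by rat together with the genes whose level varied most like it. The tissue was retroperitoneal white adipose tissue, the depot behind the kidneys, from 11 female wild-type Wistar rats harvested at 19 weeks of age. Every rat had eaten a western diet from 10 weeks of age for 6 weeks, had then been ovariectomized, and had been given degarelix, a blocker of the receptor for gonadotropin-releasing hormone that suppresses the pituitary gonadotropins. In 5 rats an osmotic pump delivered follicle-stimulating hormone (FSH) at 6 µg per kg per day (degarelix plus FSH), and in 6 rats the pump held vehicle (degarelix only). Food was limited for 12 days to hold body weight, was then free for 7 days, and was withdrawn for 4 h before harvest. Both groups therefore lacked ovaries and had degarelix, so that neither shows fat of an intact animal.

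Oxtr was chosen because of its values: its level was among those that differed most between the groups, and its difference is given as a description with no test. The genes that vary like it were chosen by their correlation with it in these same 11 libraries, so those correlations are descriptions too. One library was made per rat, and total counts per library lay between 13163021 and 19837706 with degarelix plus FSH and between 16452117 and 23694602 with degarelix only. Levels are given as CPM, the usual scale of counts relative to the library total, here scaled by edgeR's TMM factors, and SDs are between rats. All 9 adipocyte markers listed were detected, with a summed level of 25442 to 36997 CPM with degarelix plus FSH and 25595 to 33697 CPM with degarelix only. In whole tissue, fewer cells of a type and less RNA per cell cannot be told apart. The library of replicate 3 on degarelix plus FSH stood apart in its nerve and Schwann cell markers, which summed to 6689 CPM against at most 53.5 CPM in the other rats of its group. Replicate 4 on degarelix only lay farthest from its group's mean in Oxtr, at 61.9 CPM with the next rat at 88.1 CPM. The outlier check given at the end did not flag this rat in Oxtr.

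Oxtr encodes a receptor that spans the cell membrane and couples mainly to Gq proteins. When oxytocin, a small peptide made in the hypothalamus and released from the posterior pituitary, binds it, phospholipase C is activated, calcium leaves internal stores, and protein kinase C and calcium-dependent enzymes follow. The receptor is best known in the uterus, where it drives contraction and where estrogen raises its level, and in the mammary gland, where it drives milk ejection. Fat cells of rodents also carry it, and oxytocin has been described to act on the breakdown of stored fat there.

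The promoter window of Oxtr is shown because estrogen receptor and Sp1 motifs are the ones most often discussed for this gene. It was taken from RefSeq on the GRCr8 build and spans 250 bases before to 50 bases after the annotated start, on the minus strand at chr4:147170450-147170749. Capitals mark the estrogen receptor half-site TGACC on either strand (GGTCA on the other) and the GC box GGGCGG on either strand (CCGCCC on the other), the kind of site that Sp1 binds.
Oxtr: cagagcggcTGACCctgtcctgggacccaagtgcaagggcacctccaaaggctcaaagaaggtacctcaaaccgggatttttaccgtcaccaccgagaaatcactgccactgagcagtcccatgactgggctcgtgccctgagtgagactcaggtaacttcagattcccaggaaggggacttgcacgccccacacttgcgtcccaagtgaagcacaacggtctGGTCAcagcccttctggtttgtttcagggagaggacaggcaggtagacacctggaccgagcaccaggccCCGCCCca
The half-site occurred 2 times, once on each strand, and 40.5% of 33469 RefSeq promoter windows of the same length held at least 1. The GC box occurred 1 time, on the opposite strand, and 33.1% of windows held it. On either strand no match was found to the palindromic estrogen response element (0.0269% of windows), the cyclic AMP response element TGACGTCA (1.83%), the glucocorticoid receptor half-site AGAACA (20.7%), the sterol regulatory element (0.125%) or the E-box CACGTG (6.42%). The window had a GC content of 58.7%, and 29.5% of windows were at least as rich. A match is only a run of letters in this window, and no data here bear on binding to it.

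Oxtr had 52.8, 46.8, 44.0, 60.0 and 56.6 CPM in replicates 1 to 5 on degarelix plus FSH. It had 158.7, 103.2, 88.1, 61.9, 138.2 and 151.6 CPM in replicates 1 to 6 on degarelix only. All 5 rats given FSH lay below all 6 rats on degarelix only, but the gap between the nearest rats was 1.87 CPM, between replicate 4 on FSH and replicate 4 on degarelix only. Mean levels were 52.0 ± 6.62 CPM with degarelix plus FSH (SD, n = 5) and 117 ± 38.6 CPM with degarelix only (SD, n = 6). The fitted log2 change was -1.17 ± 0.22 (SE), and the ratio of the group means was 2.25-fold lower with degarelix plus FSH. Of 12846 genes tested, 37 had a more negative log2 change.

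**Figure D1:**
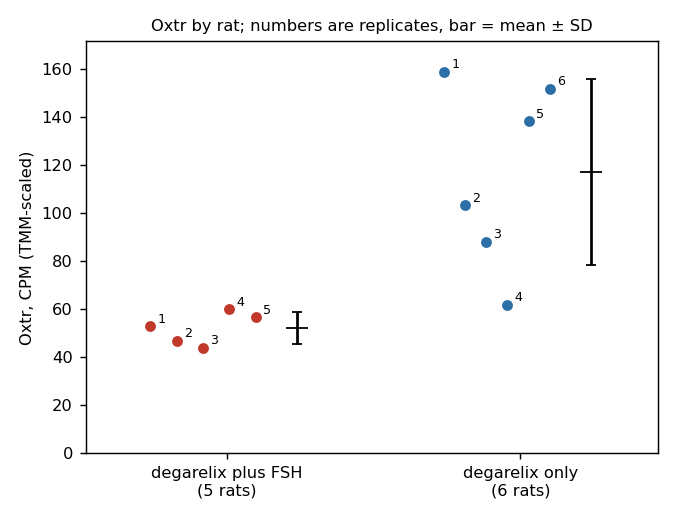
Oxtr level in CPM (TMM-scaled) in each rat, with degarelix plus FSH on the left and degarelix only on the right; points are rats with their replicate number, and bars are the mean and SD. The rats on FSH sit between 44.0 and 60.0 CPM, and the rats on degarelix only spread from 61.9 to 158.7 CPM.

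The rats on degarelix only differed far more among themselves than the rats given FSH did. The highest rat had 1.36 times the level of the lowest with degarelix plus FSH and 2.56 times with degarelix only. The coefficient of variation was 12.7% with degarelix plus FSH and 33.0% with degarelix only. The SD of log2 CPM was 0.19 with degarelix plus FSH and 0.53 with degarelix only, and 433 genes (3.37%) had at least as large a ratio of the 2 SDs. Oxtr rested on 593 to 1167 counts with degarelix plus FSH and on 1345 to 3112 counts with degarelix only. Counting error alone was between 1.79% and 4.11% of the level. Of the summed squared deviations from the group means, 91.1% came from the rats on degarelix only and 46.2% from replicate 4 of that group alone.

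Leaving out 1 library at a time moved the log2 change of Oxtr to between -1.30, without replicate 4 on degarelix only, and -1.06, without replicate 1 on degarelix only. With replicate 4 on degarelix only and replicate 3 on FSH left out together, it was -1.24.

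The genes that varied most like Oxtr were found from the deviations of log2 CPM from each group's mean, so that the difference between the groups did not enter. The 10 with the highest Pearson correlation over the 11 rats were Gsr, Hsd17b10, Gyg1, Glrx3, Trnau1ap, Prelid1, Dgat2, R3hdm2, Capns1 and Nploc4. Their r lay between 0.90 and 0.97. These points share the Oxtr values and the library scaling, and replicate 4 on degarelix only weighs most in them.

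Gsr, glutathione reductase, had the highest correlation of all genes, with r = 0.97 and a rank correlation of 0.95. It had 103.2, 97.5, 96.3, 116.3 and 101.8 CPM in replicates 1 to 5 on degarelix plus FSH. With degarelix only its lowest level was 90.9 CPM, in replicate 4, its median was 123 CPM and its highest was 139.2 CPM, in replicate 1. The rats with the least and the most Gsr on degarelix only were thus those with the least and the most Oxtr, and the groups overlapped. Without those 2 rats, which lie farthest from the Oxtr median, r over the other 9 was 0.91. Between the groups the log2 change of Gsr was -0.22 ± 0.10 (SE, adjusted p = 0.229, edgeR).

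Dgat2, the enzyme that adds the last fatty acid to a triglyceride, had r = 0.91 with Oxtr, or 0.76 without the 2 rats farthest from the median. It had 3382, 3137, 2922, 3521 and 3277 CPM on degarelix plus FSH. With degarelix only its lowest level was 2946 CPM, in replicate 4, its median was 4931 CPM and its highest was 5833 CPM, in replicate 1. Every rat on degarelix only except replicate 4 lay above all rats given FSH. The log2 change was -0.55 ± 0.15 (SE), which did not pass the threshold over all genes (adjusted p = 0.0764, edgeR).

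Nploc4, a partner of the ATPase that pulls ubiquitin-marked proteins out of membranes, was the only 1 of the 10 called between the groups, where called means an adjusted p under 0.05 over all genes tested. It had 58.1, 55.6, 55.2, 60.7 and 58.7 CPM on degarelix plus FSH. With degarelix only its lowest level was 62.8 CPM, in replicate 4, its median was 69.8 CPM and its highest was 73.8 CPM, in replicate 6, so that the groups did not overlap. The log2 change was -0.28 ± 0.05 (SE, adjusted p = 0.0321, edgeR). The call was lost in 9 of the 11 fits that left out 1 library, with an adjusted p of up to 0.0844, and stood only without replicate 4 of either group.

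The others of the 10 had log2 changes between the groups of -0.22 to -0.01, none of them called. They include Hsd17b10, a mitochondrial dehydrogenase (r = 0.95), Gyg1, which primes glycogen synthesis (r = 0.94), and Glrx3, a glutaredoxin that handles iron-sulfur clusters (r = 0.93). Trnau1ap, a partner of the selenocysteine transfer RNA, had r = 0.93, and Prelid1, which carries phosphatidic acid within mitochondria, had r = 0.92. Capns1, a regulatory subunit of calpain proteases, averaged 1.24 ± 0.27 CPM with degarelix plus FSH and 1.45 ± 0.48 CPM with degarelix only (SD, n = 5 and 6), so its r rests on few counts.

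Among genes with a true symbol on a single row, the 5 with the lowest r were Ythdc1, Adcy4, Stx16, Pknox1 and Sp140, with r between -0.94 and -0.92. Outside that limit, C4a, a complement component whose symbol stands on more than 1 row, and a row with a placeholder name had r of -0.94 each. Adcy4, which makes cyclic AMP, had 106.5, 105.7, 105.2, 95.5 and 109.9 CPM on degarelix plus FSH. With degarelix only its lowest level was 66.6 CPM, in replicate 5, its median was 76.0 CPM and its highest was 103.3 CPM, in replicate 4. Only replicate 4 on degarelix only reached the range of the rats given FSH. The log2 change of Adcy4 was 0.40 ± 0.11 (SE), which missed the threshold (adjusted p = 0.0681, edgeR). Ythdc1, a nuclear reader of methylated adenosine in RNA, had r = -0.94, and its log2 change was 0.11 ± 0.07 (SE, adjusted p = 0.347). Stx16, a membrane fusion protein, had a log2 change of 0.25 (adjusted p = 0.142), Pknox1, a homeodomain factor, 0.04 (adjusted p = 0.83) and Sp140, a nuclear body protein, 0.16 (adjusted p = 0.364).

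**Figure D2:**
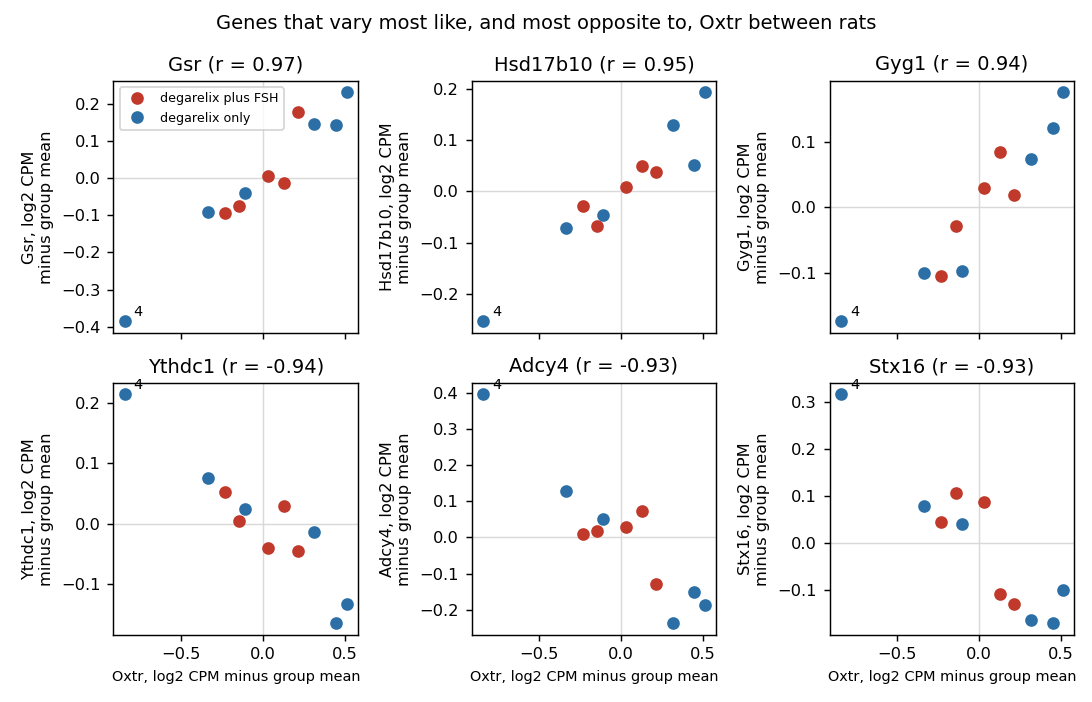
Log2 CPM minus the group mean for Oxtr (horizontal axis) and for Gsr, Hsd17b10, Gyg1, Ythdc1, Adcy4 and Stx16 (vertical axes), the 3 highest and 3 lowest r among genes with a true symbol on a single row, with 1 point per rat in the colour of its group and replicate 4 on degarelix only marked 4. Gsr, Hsd17b10 and Gyg1 rise with Oxtr (r = 0.97, 0.95 and 0.94) and Ythdc1, Adcy4 and Stx16 fall (r = -0.94, -0.93 and -0.93), with the marked rat at the far left of each panel.

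The 20 genes with the highest r had log2 changes between the groups of which 19 lay below 0 and 1 above, with a median of -0.16. Over all 12845 genes tested other than Oxtr, 6215 lay below 0 and 6630 above, with a median of 0.00812. The 20 genes with the lowest r had 16 changes above 0 and 4 below, with a median of 0.18. Of the 20 highest, 1 was called between the groups (Nploc4, lower), and of the 20 lowest none was, while 2.27% of all genes tested were called (1.21% higher and 1.07% lower). At an unadjusted p under 0.05, 7 of either 20 passed, against 22.6% of all genes.

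When each gene was fitted against the Oxtr level of the rat within its group, none of the 12845 genes passed the threshold over all genes in edgeR (0%). At an unadjusted p under 0.05, 1718 genes passed (13.4%), 841 moving with Oxtr and 877 against it, and limma-voom also called 0. The 15 correlates named above had adjusted p-values of 0.098 to 0.243 in this fit. The smallest, 0.0549, belonged to C4a, which was named after its values were seen. This count of 0 depended on single libraries: it was 26 without replicate 6 on degarelix only, 19 without replicate 5 on FSH, and 3 without replicate 1 on FSH or replicate 2 on degarelix only.

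Which genes ranked highest also depended on single rats. Of the 20 genes with the highest r, between 5 (without replicate 6 on degarelix only) and 16 remained among the highest 20 when 1 library was left out. Of the 20 with the lowest r, between 4 (without replicate 4 on degarelix only) and 15 remained. Without replicate 4 on degarelix only, 8 of the highest 20 remained. The 20 highest still had r of 0.73 to 0.94 over the 10 other rats.

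**Figure D3:**
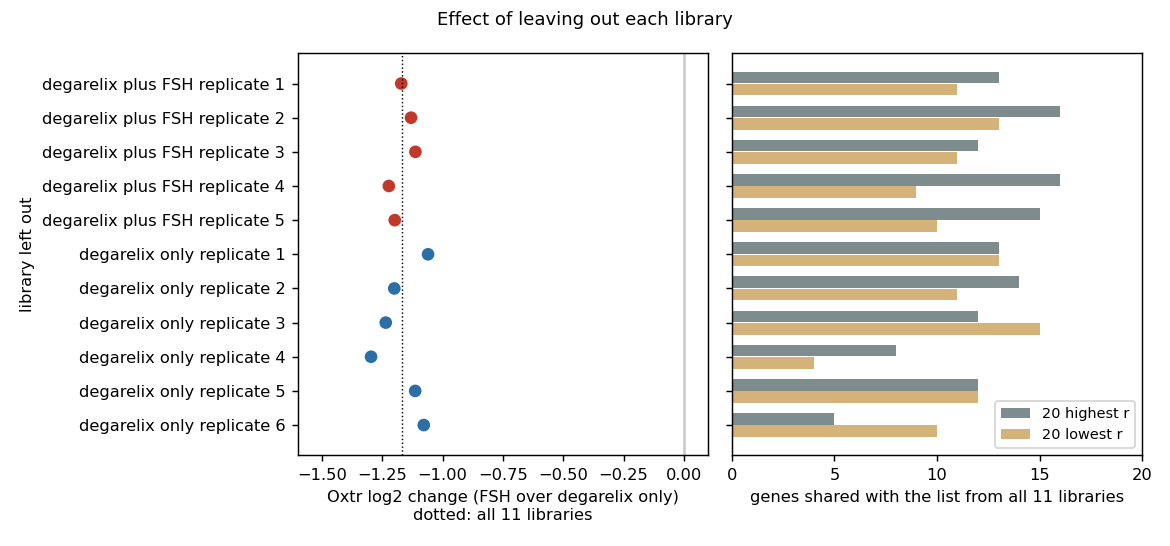
Effect of leaving out each library in turn, with the rats on degarelix plus FSH above those on degarelix only. The left panel shows the fitted log2 change of Oxtr (dotted line, -1.17 with all libraries), which stays between -1.30 and -1.06, and the right panel counts how many of the 20 genes with the highest and the lowest r with Oxtr are shared with the ranking from all libraries.

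Oxtr was set beside summed marker levels of 12 cell types and tissues and the library total, again as deviations from the group means, in 13 relations over the 11 rats. With the adipocyte markers r was 0.22 and the rank correlation 0.23 (exact permutation of rats within groups, two-sided, p = 0.505 and 0.501, adjusted p = 0.760 and 0.743). In these relations the 2 rats left out were those farthest from the median in the marker sum or total, not in Oxtr. The pair therefore differed between relations. Without its 2 rats, r with the adipocyte markers was -0.23. With the library total r was 0.13 and rho 0.33 (exact permutation p = 0.728 and 0.308, adjusted p = 0.788 and 0.704), with r of -0.16 without the 2 rats farthest out.

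The adrenal and kidney list had the highest r with Oxtr, 0.77, with rho 0.76 (exact permutation p = 0.0257 and 0.0341, adjusted p = 0.167 and 0.148) and r of 0.73 without 2 rats. Its sum was 51.5 to 62.2 CPM with degarelix plus FSH and 50.9 to 69.0 CPM with degarelix only, nearly all from Cyp11a1 and Star, while the kidney marker Umod was at 0. Skeletal muscle markers had r = -0.64 and rho = -0.64 (exact permutation p = 0.0119 and 0.0307, adjusted p = 0.155 and 0.148), or r = -0.58 without 2 rats. Their sum averaged 13.0 CPM with degarelix plus FSH and 13.6 CPM with degarelix only, of which Tnnt3 gave 8.85 and 9.99 CPM. Tnnt3 had r = -0.88 with Oxtr, while Myl1, the other member tested, had r = 0.29. Mesothelial markers had r = -0.60 and rho = -0.75 (exact permutation p = 0.0419 and 0.0078, adjusted p = 0.181 and 0.101), or r = -0.52 without 2 rats. Their sum was 2.04 to 14.0 CPM with degarelix plus FSH and 0.917 to 7.39 CPM with degarelix only, so this r rests on few counts. None of the 13 relations passed the threshold over the family. Without replicate 2 on FSH the skeletal muscle relation did (r = -0.78, exact permutation adjusted p = 0.00828), and without replicate 4 on degarelix only the mesothelial one did (r = -0.79, adjusted p = 0.0271). Macrophage markers had r = -0.46 with all rats, or 0.24 without 2 rats, and their highest sum, 349 CPM, was in replicate 4 on degarelix only. Endothelial markers had r = -0.23, and the 6 remaining lists lay between -0.16 for T cells and 0.32 for adipocyte progenitors. Of these, nerve and Schwann cell markers had r = -0.0036 with all rats, 0.72 without replicate 3 on FSH, the library that stood apart in them (exact permutation adjusted p = 0.294), and 0.66 without 2 rats. Epithelial and mammary markers had r = 0.25 with all rats, -0.51 without replicate 4 on degarelix only (exact permutation adjusted p = 0.494) and -0.24 without 2 rats. The part of these cell types in the Oxtr difference was not tested beyond these relations.

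Of the other genes of the pathway, 134 were listed in 9 lists, 131 matched a row and 108 passed the filter on low counts, Oxtr left out. Of these 108, 8 were called between the groups (7.41%), 5 higher and 3 lower, beside 2.27% of all genes tested (1.21% higher and 1.07% lower). With 1 library left out, the count was 2 or 3 without any of replicates 1, 2 and 5 on FSH or 1, 2, 3, 5 and 6 on degarelix only. It was 6 without replicate 3 on FSH, 9 without replicate 4 on degarelix only, 11 without replicate 4 on FSH, and 7 without replicates 3 on FSH and 4 on degarelix only together. The changes were split, with 56 above 0 and 52 below and a median of 0.01. Several of the called genes were known to differ when the lists were made, so the share is a description. None of the 108 was called as following Oxtr from rat to rat, and 10 were at an unadjusted p under 0.05, beside 13.4% of all genes in that fit. In all 8 called genes the groups did not overlap, as was the case for 4.34% of all genes. The 8 were called on the same contrast of the same rats, so this follows largely from the call and adds nothing to it.

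**Figure D4:**
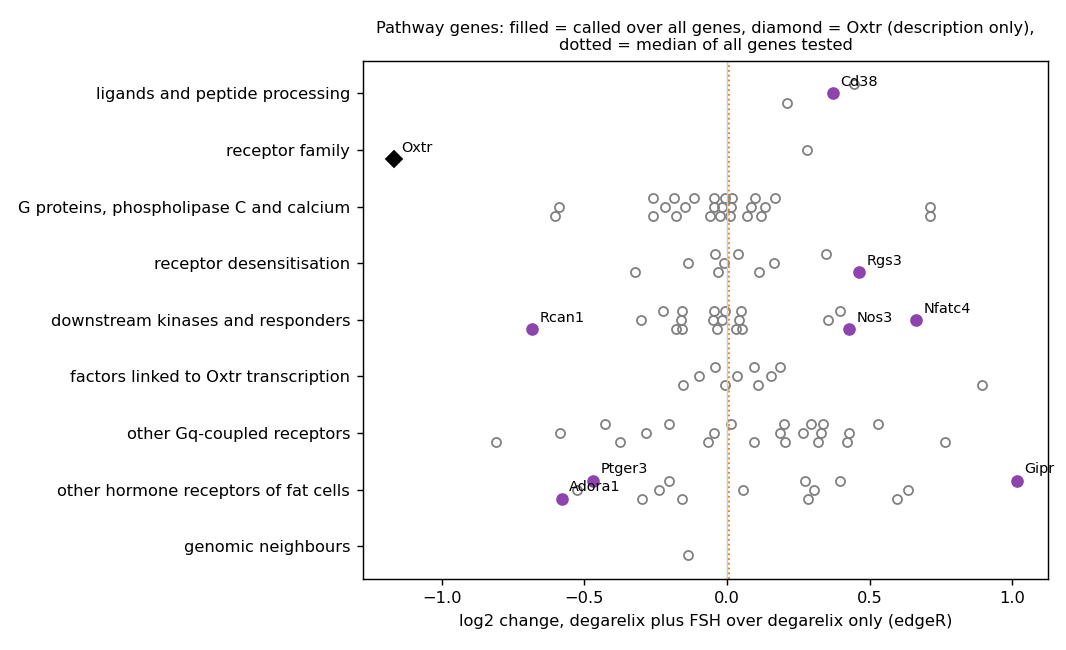
Fitted log2 change (degarelix plus FSH over degarelix only) of every tested gene in the 9 pathway lists, 1 list per row; filled points passed the threshold over all genes, the diamond is Oxtr, shown as a description, and the dotted line is the median of all genes tested (0.00812). Oxtr lies at -1.17, further from 0 than every listed gene, and the called genes lie on either side of 0.

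Among the ligands and the enzymes that make, release or cleave them, Oxt, which encodes oxytocin itself, had 0 counts in all 11 libraries. Avp, the vasopressin gene, had 3 to 13 counts per library. The convertases Pcsk1 and Pcsk2 and the oxytocin-cleaving aminopeptidase Lnpep were also listed at 0 throughout, as were all 13 mitochondrial rows. Since Lnpep is known to be plentiful in fat cells, a listed 0 is not read as absence, nor a low level as weak expression. Relative to the library totals without TMM scaling, 3 counts correspond to 0.127 to 0.228 CPM. Pam, which amidates peptide hormones, averaged 317 ± 14.4 CPM with degarelix plus FSH and 274 ± 24.2 CPM with degarelix only (SD, n = 5 and 6, adjusted p = 0.121). Cpe, which trims them, averaged 43.9 ± 11.4 CPM with degarelix plus FSH and 32.2 ± 3.45 CPM with degarelix only (adjusted p = 0.111).

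Cd38, whose product makes cyclic ADP-ribose and is needed in mice for oxytocin release in the brain, was higher. It had 33.99, 34.2, 29.0, 30.4 and 37.1 CPM on degarelix plus FSH, against a lowest level of 22.8 CPM, a median of 25.8 CPM and a highest of 28.2 CPM with degarelix only. Replicate 3 of either group lay nearest to the other group, and the groups did not overlap. The log2 change was 0.37 ± 0.08 (SE, adjusted p = 0.0372, edgeR). The call stood only without replicates 3 or 4 of either group, and the adjusted p reached 0.0954 with another library left out.

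In the receptor family, Avpr1a, the vasopressin receptor nearest in kind that passed the filter, averaged 2.06 ± 0.76 CPM with degarelix plus FSH and 1.69 ± 0.40 CPM with degarelix only (SD, n = 5 and 6). Its log2 change was 0.28 ± 0.25 (SE, adjusted p = 0.537). Avpr1b and Avpr2 were at 0 in every library.

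The 26 tested genes of G proteins, phospholipase C and calcium, the steps just below the receptor, had a median log2 change of -0.02, and none was called in edgeR or limma-voom. At an unadjusted p under 0.05 there were 5 of the 26, beside 22.6% of all genes. DESeq2 called 1, Itpr3, a calcium channel of internal stores, beside 540 genes higher and 563 lower of 17034 with at least 1 count. Itpr3 had 68.0 CPM in replicate 3 on FSH, the library that stood apart in its nerve and Schwann cell markers. It had 22.2 to 36.9 CPM in the other rats given FSH and 19.6 to 25.9 CPM with degarelix only. Gnaq, the Gq subunit itself, averaged 3.25 ± 0.78 CPM with degarelix plus FSH and 3.90 ± 0.86 CPM with degarelix only (adjusted p = 0.462). Gnaq rested on 30 to 95 counts per library, and its low level is not read as weak expression. Gna11, its close relative, averaged 22.7 ± 3.36 CPM with degarelix plus FSH and 26.4 ± 2.36 CPM with degarelix only (adjusted p = 0.218). The list members with the highest mean level, Calm3, Gnai2 and Rhoa, had log2 changes of -0.15, 0.01 and 0.01. Camk2b, a calcium-dependent kinase, had the highest r with Oxtr in the list, 0.77, and a log2 change between the groups of -0.04.

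Of the 10 tested genes that switch such receptors off, 1 was called, beside 2.27% of all genes tested. This was Rgs3, which speeds the return of Gq and Gi proteins to rest and was higher. It had 128, 143, 120.0, 174 and 135 CPM on degarelix plus FSH, against a lowest level of 83.0 CPM, a median of 102 CPM and a highest of 115 CPM with degarelix only. The groups did not overlap, and replicate 4 was the highest with FSH and the lowest with degarelix only. The log2 change was 0.46 ± 0.11 (SE, adjusted p = 0.0448, edgeR). The call stood only without replicate 4 of either group, with an adjusted p of up to 0.102 otherwise. The receptor kinases Grk6 and Adrbk1 had log2 changes of -0.03 and -0.01, and Rgs5 one of 0.16.

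Of the 20 tested downstream kinases and responders, 3 were called, 2 higher and 1 lower, beside 2.27% of all genes tested. Rcan1, an inhibitor of the calcium-dependent phosphatase calcineurin, was lower. It had 70.6, 52.4, 64.5, 67.5 and 57.6 CPM on degarelix plus FSH, against a lowest level of 88.8 CPM, a median of 102 CPM and a highest of 109 CPM with degarelix only. All rats given FSH lay below all rats on degarelix only. The log2 change was -0.68 ± 0.09 (SE, adjusted p = 0.00524, edgeR). Within groups, r of Rcan1 with Oxtr was -0.13.

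Nfatc4, a transcription factor that calcineurin activates, was higher. It had 49.5, 63.3, 70.2, 61.5 and 65.8 CPM on degarelix plus FSH, against a lowest level of 32.3 CPM, a median of 39.9 CPM and a highest of 43.6 CPM with degarelix only. Replicate 1 was the lowest in either group, and the groups did not overlap. The log2 change was 0.66 ± 0.10 (SE, adjusted p = 0.0098, edgeR), and r with Oxtr was -0.64. Rcan1 and Nfatc4 were the only members of the lists called in every fit that left out 1 library, with adjusted p-values of at most 0.0239 and 0.0381. Ppp3r1, the regulatory subunit of calcineurin, had a log2 change of -0.23 ± 0.08 (SE, adjusted p = 0.142).

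Nos3, the nitric oxide synthase of endothelial cells, had 156, 129, 116, 117 and 125 CPM on degarelix plus FSH, against a lowest level of 87.6 CPM, a median of 90.7 CPM and a highest of 112 CPM with degarelix only. Replicate 1 was the highest with FSH, and the groups did not overlap. Its log2 change was 0.43 ± 0.09 (SE, adjusted p = 0.0395, edgeR), and the call stood only without replicate 4 of either group or replicate 2 on degarelix only. The 8 endothelial markers tested all had changes above 0, with 1 called, beside 6630 of all 12846 genes above 0 and 2.27% called, and the markers summed to 1667 to 2740 CPM with degarelix plus FSH and 1474 to 1984 CPM with degarelix only. Their part in the Nos3 difference was not tested. Jun, an early response factor, had the lowest r with Oxtr of all list members, -0.86, and a log2 change of 0.04 between the groups. Eef2, an elongation factor, and the kinase Mapk3 had log2 changes of -0.05 and -0.01.

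None of the 10 tested factors linked to Oxtr transcription was called in edgeR or limma-voom. Of the 10, 2 were at an unadjusted p under 0.05, beside 22.6% of all genes. DESeq2 called 1, Sp1, which binds GC boxes such as the one printed above. Over all 17034 genes with at least 1 count, DESeq2 called 540 higher and 563 lower. Sp1 averaged 67.3 ± 2.80 CPM with degarelix plus FSH and 59.1 ± 3.14 CPM with degarelix only (SD, n = 5 and 6, log2 change 0.19 ± 0.05 SE, adjusted p = 0.0803 in edgeR), and its r with Oxtr was -0.66. Esr1, the estrogen receptor alpha, varied widely, at 90.1 ± 47.7 CPM with degarelix plus FSH and 48.4 ± 25.1 CPM with degarelix only (log2 change 0.89 ± 0.46 SE, adjusted p = 0.274). Its r with Oxtr was -0.43. Cebpa, Rela and Nfkb1 had log2 changes of -0.15, -0.01 and 0.11. Esr2 and Pgr, the estrogen receptor beta and the progesterone receptor, were listed at 0.

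None of the 22 tested receptors that signal through the same Gq proteins was called in edgeR or limma-voom. Of the 22, 4 were at an unadjusted p under 0.05, beside 22.6% of all genes. DESeq2 called 2, Bdkrb2 and Ednra, the receptors for bradykinin and endothelin. Over all 17034 genes with at least 1 count, it called 540 higher and 563 lower. The median log2 change of the list was 0.19, with 14 genes above 0 and 8 below. F2r, a thrombin receptor, had the highest r with Oxtr of all list members, 0.83, with a log2 change between the groups of 0.19 ± 0.16 (SE, adjusted p = 0.512, edgeR). S1pr3 and Adra1d, receptors for sphingosine phosphate and noradrenaline, had log2 changes of 0.29 and -0.28.

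Of the 15 tested receptors for other hormones of fat cells, 2 were called lower and 1 higher, beside 1.07% and 1.21% of all genes tested. Adora1, the adenosine receptor that restrains fat breakdown, had 64.6, 82.0, 97.8, 96.3 and 70.2 CPM on degarelix plus FSH, against a lowest level of 108 CPM, a median of 119 CPM and a highest of 151 CPM with degarelix only. Ptger3, a prostaglandin receptor that also acts through Gi proteins, had 131.8, 95.9, 115, 115 and 99.9 CPM on degarelix plus FSH. With degarelix only its lowest level was 131.9 CPM, its median was 152 CPM and its highest was 180.1 CPM. Gipr, the receptor for the gut hormone GIP, had 33.5, 68.9, 33.0, 43.3 and 49.2 CPM on degarelix plus FSH, against a lowest level of 14.9 CPM, a median of 24.98 CPM and a highest of 27.4 CPM with degarelix only. In none of these did the groups overlap, as was the case for 4.34% of all genes. In Ptger3, replicate 1 on FSH came within 1 CPM of the lowest rat on degarelix only. The log2 changes were -0.58 ± 0.12 for Adora1, -0.47 ± 0.11 for Ptger3 and 1.02 ± 0.22 for Gipr (SE, adjusted p = 0.0396, 0.0448 and 0.0397, edgeR). The calls of Adora1 and Gipr stood only without replicate 4 of either group or replicate 3 on FSH, and that of Ptger3 only without replicate 4 of either group. Ghr, Adrb3 and Npr3, receptors for growth hormone, noradrenaline and natriuretic peptides, had log2 changes of -0.24, 0.05 and -0.53, none of them called. Fshr, the receptor for FSH itself, had 0 counts in every library.

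**Figure D5:**
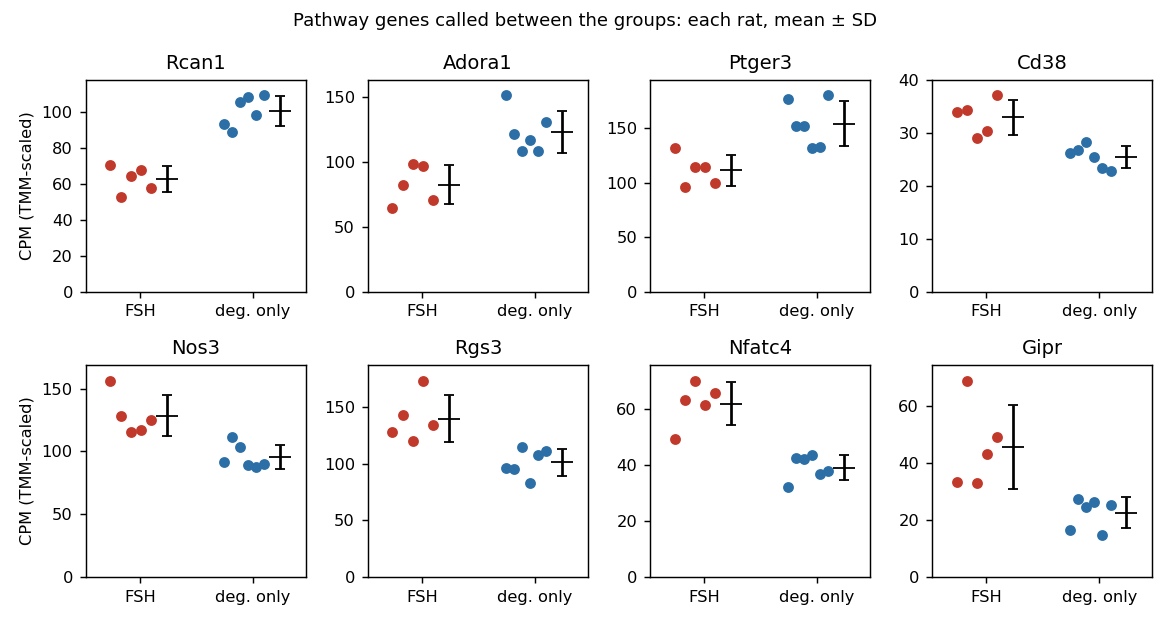
Level in CPM (TMM-scaled, vertical axes) of the 8 pathway genes called between the groups, with 1 point per rat, degarelix plus FSH on the left and degarelix only on the right of each panel, and bars for the mean and SD. No panel has overlapping groups, and 5 genes (Cd38, Rgs3, Nfatc4, Nos3 and Gipr) are higher and 3 (Rcan1, Adora1 and Ptger3) lower with degarelix plus FSH.

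In RefSeq's gene order on GRCr8, Oxtr lies between Cav3 and Rad18. Cav3, the caveolin of muscle, had 0 to 3 counts per library and was not tested. Rad18, a DNA repair ligase, averaged 12.6 ± 0.91 CPM with degarelix plus FSH and 13.9 ± 0.77 CPM with degarelix only (SD, n = 5 and 6). Its log2 change was -0.14 ± 0.07 (SE, adjusted p = 0.277, edgeR), and its r with Oxtr was 0.12.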

How the data were processed

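RNA of 11 rats was measured, 1 library per rat. The authors deposited whole-number counts per Ensembl gene without normalization, as the file's values show. Libraries came from a stranded kit, per the labels' protocols, and STAR, edgeR, DESeq2 and the build rn6 were used, per the submitters' processing notes. No source used here names the counting program or its strand setting, so counts of overlapping or antisense genes are uncertain. Groups came from the labels.

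Of 25275 genes, 1 was left out (Pcmt1, a letter in a count), 17034 had at least 1 count and 12846 passed filterByExpr. R 4.3.3 with edgeR 4.0.16 gave the contrast by a robust quasi-likelihood test after TMM scaling, with group as the only term and 9 degrees of freedom left. P-values are two-sided, adjusted by Benjamini-Hochberg over all genes, and read at 0.05. Every adjusted p in the text without another tool's name is from it. The biological coefficient of variation was 0.191. Correlations used log2 CPM (prior count 2) minus group means, and marker sums were tested by exact permutation within groups (86400 orders) with Python 3.11.15. The test of genes against Oxtr added its deviation to the same edgeR model. Scripts were tested on simulated data. No pair of libraries was alike (lowest chi-square per degree of freedom 21.3 over 55 pairs). Libraries are individual rats, per the labels.

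Oxtr, the lists and the tests were chosen with earlier results of these data known. Named genes are Oxtr, the 10 highest and 5 lowest r among symbols on a single row, pathway genes called, the ligand, receptor and neighbour lists, and up to 3 uncalled genes with the highest mean CPM in each other list; further list members named were chosen after their values were seen. Of the listed genes, 198 matched by symbol and 2 by an older symbol, 1 stood on several rows and 6 did not match. Alternatives were other scalings, filters, DESeq2 1.42.0, limma 3.58.1 (voom), rank correlation, a replicate block and leaving out libraries.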

Additional observations from a re-analysis of the deposited data

Results flagged for a closer look

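Of 116 groups of values checked, 7 held a rat far from the others of its group by Dixon's criterion, which chance gives in about 1 in 20 groups. Among the correlates of Oxtr, Prelid1 had 143.6 CPM in replicate 5 on degarelix plus FSH, with the nearest rat at 136.0 CPM. On degarelix only, replicate 6 had 1264 CPM of Calm3 (nearest rat 992 CPM) and 59.7 CPM of Adra1d (nearest rat 41.9 CPM). The brown adipocyte markers of the same rat summed to 182 CPM (nearest rat 118 CPM), all of it from Cidea, while Ucp1 and Cox8b had 0 counts in this rat. Ucp1 and Cox8b had 100 and 106 counts in replicate 3 on degarelix plus FSH and at most 4 in any other rat. On degarelix plus FSH, replicate 4 had the highest adipocyte marker sum, 36997 CPM (nearest rat 28759 CPM). Replicate 3 on degarelix plus FSH had mesothelial markers of 14.0 CPM (nearest rat 3.36 CPM) and nerve and Schwann cell markers of 6689 CPM (nearest rat 53.5 CPM). Oxtr itself held no such rat in either group.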

How the results depend on the processing

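The log2 change of Oxtr kept its direction in every setting tried. It was -1.02 with a replicate block, -1.10 with limma-voom, -1.18 with DESeq2 and -1.30 to -1.06 with 1 library left out. Between the groups, 292 genes were called, against 1103 with DESeq2, 14 with the replicate block and 30 to 551 with 1 library left out. Of the pathway genes, 8 were called, against 5 without a low-count filter, 15 with DESeq2, 2 with the block (Rcan1 and Nfatc4) and 2 to 11 with 1 library left out. Of the 20 genes with the highest r, 1 was called, against 0 with the block, with rank correlation or without replicates 4 on degarelix only and 3 on FSH together (an alternative chosen after seeing the data), and 0 to 2 with 1 library left out. Of the 20 with the lowest r, 0 were called, against 1 with rank correlation or without those 2 libraries, and 0 to 2 with 1 library left out. Genes called as following Oxtr numbered 0, against 1 without the filter and 0 to 26 with 1 library left out, and 0 to 1 of the 13 marker relations passed. The cause of these differences was not tested. Replicate numbers were not taken as pairs in the main fit. Same-numbered rats of the 2 groups had correlations of -0.11 to 0.13, and only number 5 correlated best with its own. Such correlations between single libraries cannot exclude that same-numbered rats shared handling or a batch. The limits are 5 and 6 rats per group, a narrow gap between the groups in Oxtr, and 1 rat on degarelix only that carries much of its variation.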
